A study of Bos taurus with 3 samples.

Results

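The smooth muscle contractile genes described here are 10 genes, ACTA2, ACTG2, MYH11, MYL9, TPM1, TPM2, CNN1, TAGLN, DES and LMOD1, taken by symbol from the 27270 genes of the count tables, where each symbol names 1 gene. They were measured in the rumen of 3 newborn Holstein calves, taken 1 day after birth from the ventral sac, by droplet single-cell RNA sequencing with 1 library per calf. The outer muscle layers were stripped off before dissociation, and how completely was not measured here. All calves form a single group with no treatment, and adult libraries were not analysed here.

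Smooth muscle contracts when myosin filaments, each built of heavy chains and light chains, pull on actin filaments lined by tropomyosin. Calponin and transgelin bind these actin filaments, desmin links them to the rest of the cell, and leiomodin starts new ones. In an organ lining such cells are best known from the walls of vessels, where smooth muscle cells and pericytes together are called mural cells, and actin-rich fibroblasts can use part of the same gene set.

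The gene identifiers were ENSBTAG00000014614 for ACTA2, ENSBTAG00000015441 for ACTG2, ENSBTAG00000015988 for MYH11, ENSBTAG00000011473 for MYL9, ENSBTAG00000005373 for TPM1, ENSBTAG00000011424 for TPM2, ENSBTAG00000011207 for CNN1, ENSBTAG00000007196 for TAGLN, ENSBTAG00000005353 for DES and ENSBTAG00000021576 for LMOD1. Levels are unique molecular identifiers (UMIs) of a gene per 10000 UMIs, pooled over the cells of a class in a calf. The kit tags 1 end of each transcript, so levels of different genes were compared without division by length. Actin genes have very similar coding sequences, and how many reads could not be assigned between them was not tested.

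The libraries of calves 1, 2 and 3 held 82263092, 89803289 and 106145091 UMIs in 7529, 12043 and 11656 barcodes, of which 4695, 9746 and 9601 were kept as cells with 500 to 4000 detected genes. Pairs of calves shared 21, 29 and 37 barcode sequences. Clusters were built without the 10 genes and named from other markers. The mural cells numbered 6, 119 and 195 in calves 1, 2 and 3, the fibroblasts 17, 225 and 228, the endothelial cells 77, 568 and 691, and the epithelial cells 4585, 8754 and 7743. The study uses the name myofibroblasts for a cluster rich in ACTA2, and the name mural used here comes from markers that leave out the 10 genes, so the rebuilt class and its name can differ from the study's. The fibroblasts were made of 336 PAM+ cells, rich in LUM and CXCL14, and 134 MFAP5+ cells, rich in COL1A1 and DLK1. All 14 mural markers had UMIs in the mural cells, led by HIGD1B and NOTCH3, and their summed level was 18.8, 36.9 and 49.0 per 10000 in calves 1, 2 and 3. The 6 mural cells of calf 1 also carried epithelial markers at 173.5 per 10000, close to the 201.2 of that calf's epithelial cells, whereas those of calves 2 and 3 carried 21.4 and 16.6. Levels and shares of mural cells that use calf 1 are therefore given per calf or beside the value without it where it moves them most, and its part in them was not tested.

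In mural cells the 10 genes together reached 71.7, 206.7 and 169.3 UMIs per 10000 in calves 1, 2 and 3, with 95% Poisson intervals of 62.1 to 82.3, 202.0 to 211.6 and 165.8 to 172.8. In fibroblasts the sum was 4.38, 23.8 and 6.31, in endothelial cells 1.48, 1.77 and 2.45, and in epithelial cells 2.15, 2.32 and 1.91. Mural cells were above every other class in each calf and no calf's mural value overlapped with another class. The mean was 149.2 ± 69.7 (SD, n = 3 calves) in mural cells and 11.5 ± 10.7 in fibroblasts, and 188.0 and 15.1 without calf 1. These intervals, and those given for shares, cover counting error only, and a class defined by clustering was not tested against the rest.

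**Figure D1:**
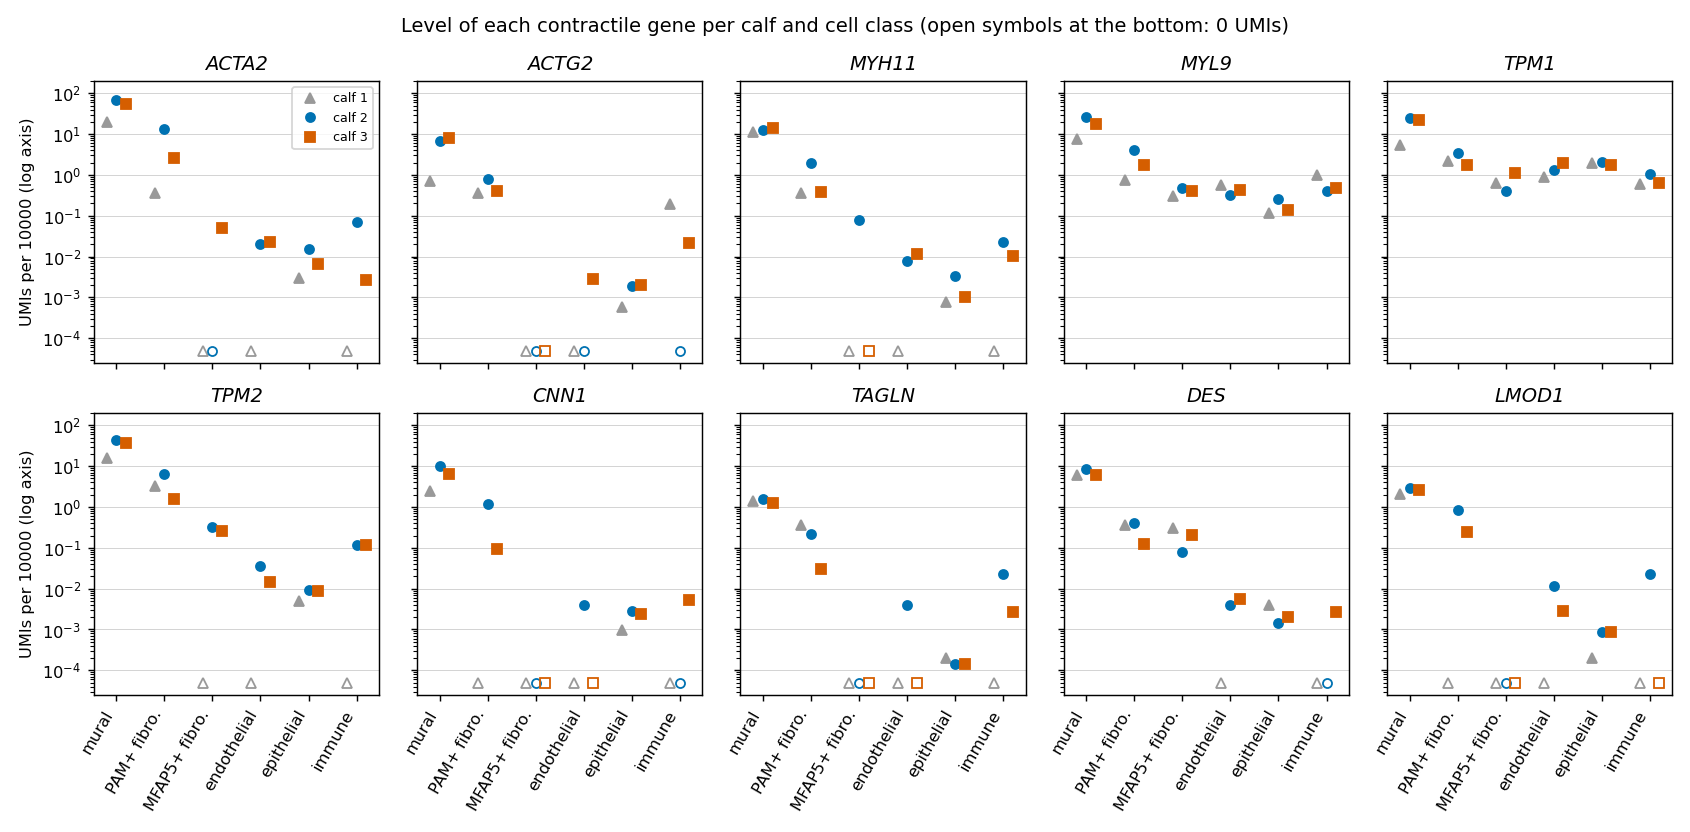
Each panel plots the UMIs per 10000 of a contractile gene on a log axis for the mural, PAM+ fibroblast, MFAP5+ fibroblast, endothelial, epithelial and immune cells of the 3 calves, with a symbol per calf and open symbols at the bottom for 0 UMIs. Within each calf the measured levels of all 10 genes are highest in mural cells, while TPM1 and MYL9 stay above 0.1 in every class. In calf 1 ACTG2 had no UMI in MFAP5+ fibroblasts, which allows a fold of mural cells over them as low as 0.76.

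The smooth muscle actins differed from each other in abundance. ACTA2, the vascular form and the most abundant of the 10 genes, reached 19.5, 69.01 and 53.2 UMIs per 10000 in the mural cells of calves 1, 2 and 3. ACTG2, the form best known from visceral muscle, reached 0.710, 6.83 and 8.16. In calf 1 the ACTG2 value rests on 2 UMIs, and it lay below the 0.791 of the PAM+ fibroblasts of calf 2. In fibroblasts ACTA2 was found at 0.168, 9.55 and 1.64 per 10000, so that the fibroblasts of calf 2 stood above those of the other calves. In epithelial cells ACTA2 was found at 0.00295, 0.0153 and 0.00662 and ACTG2 at 0.000591, 0.00189 and 0.00201.

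The myosin chains were carried by fewer mural cells than ACTA2 for the heavy chain and by about as many for the light chain. MYH11, the smooth muscle heavy chain, was at 11.001, 12.5 and 14.0 UMIs per 10000 of mural cells. Over the 3 calves it was the steadiest of the abundant genes, but this rests on the 6 mural cells of calf 1. Between calves 2 and 3 alone TPM1, at 25.1 and 22.5, was about as steady. MYL9, a regulatory light chain, reached 7.45, 26.0 and 17.3. Outside mural cells the chains parted: MYH11 was at 0, 0.00794 and 0.0114 in endothelial cells, whereas MYL9 was at 0.580, 0.329 and 0.419 there and at 0.120, 0.254 and 0.136 in epithelial cells.

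The tropomyosins differed in how far they reached beyond mural cells. TPM2 was at 15.6, 44.3 and 37.9 UMIs per 10000 of mural cells and TPM1 at 5.32, 25.1 and 22.5. In epithelial cells TPM2 was nearly missing, at 0.00492, 0.00917 and 0.00863, but TPM1 was at 2.01, 2.03 and 1.75. Because epithelial cells made up most of each library, they held 99.4%, 91.1% and 84.6% of all TPM1 UMIs of the kept cells in calves 1, 2 and 3. For ACTA2 the mural cells held 77.5%, 81.8% and 95.3% of the UMIs.

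Among the regulators and the filament genes, CNN1, the smooth muscle calponin, reached 2.48, 10.1 and 6.45 UMIs per 10000 of mural cells. TAGLN, the smooth muscle transgelin, was the lowest of the 10 genes on average, at 1.42, 1.56 and 1.23, and LMOD1, the leiomodin of smooth muscle, was at 2.13, 3.00 and 2.55. With a kit that reads transcript ends, a level also depends on how the annotation covers that end, which was not examined here for TAGLN or the other genes. DES, the muscle intermediate filament desmin, was at 6.03, 8.31 and 6.08. TAGLN and LMOD1 varied little between calves, and both were below DES in every calf. In calf 1 their values rest on few UMIs, as all kept cells of that calf held 6 of TAGLN and 7 of LMOD1. In the order of mean levels, only the steps from MYH11 to DES and from LMOD1 to TAGLN exceeded the larger SD of the 2 neighbours, but ACTA2 was also above TPM2, and TPM2 above TPM1, in 3 of 3 calves. The order of the other neighbours changed between calves.

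Positive shares were compared at a fixed depth of 2000 UMIs, drawn at random from each cell that had as many, which left out 1, 35 and 65 mural cells of calves 1, 2 and 3. Median depths before thinning were 2416.5 UMIs in mural and 7784 in epithelial cells. An ACTA2 UMI was found in 4 of 5 thinned mural cells of calf 1, in 82.1% of 84 in calf 2 and in 75.4% of 130 in calf 3, a mean of 79.2% ± 3.45 (SD, n = 3 calves), and without thinning in 100%, 80.7% and 74.9%. The exact Clopper-Pearson interval of the unthinned share was 72.4 to 87.3% in calf 2 and 68.2 to 80.8% in calf 3. In thinned epithelial cells an ACTA2 UMI was found in 0.0899%, 0.340% and 0.132%. Whether these UMIs came from free RNA, remaining doublets or low expression was not tested.

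The thinned shares split the 10 genes into common and less common ones. TPM2, TPM1 and MYL9 were found in 85.7%, 86.9% and 84.5% of the thinned mural cells of calf 2 and in 80.8%, 81.5% and 76.2% of those of calf 3. DES was found in 47.6% and 38.5%, MYH11 in 42.9% and 39.2%, and ACTG2 in 40.5% and 25.4%. CNN1 was found in 36.9% and 24.6%, LMOD1 in 32.1% and 32.3% and TAGLN in 21.4% and 17.7%. DES, with levels under those of MYH11, was thus found in about as many cells as MYH11. Mural cells held a median of 5 of the 10 genes in calves 2 and 3, and 6 cells of each of these calves held all 10. At least 5 of the genes were found in 58.3% of the mural cells of calf 2 and in 56.9% of those of calf 3, whereas no thinned endothelial or epithelial cell had more than 3.

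The level of every member in mural cells was at least 4 times that in fibroblasts in both calves with 20 or more cells of each class, which were calves 2 and 3. This held for 10 of 10 members and for 165 of 6607 genes with enough UMIs, or 2.5%. Against endothelial cells the same rule was met by 10 of 10 members and by 423 of 9355 genes, or 4.52%, and against epithelial cells by 10 of 10 members and by 986 of 13181 genes, or 7.48%. The smaller of a member's folds over fibroblasts was lowest for LMOD1, at 4.90, followed by ACTA2 at 7.22, and highest for DES, at 26.1. The median log2 difference between mural cells and fibroblasts was 3.46 over the members and -0.03 over all tested genes. The 4-fold limit is a rule of size and not a test, and LMOD1 missed it in calf 2, at 3.89, when levels were averaged over cells instead of pooled. The fibroblasts of this rule hold both subsets. Against PAM+ fibroblasts alone LMOD1 also missed the limit in calf 2, at 3.51, and the other members did not miss it in calves 2 and 3.

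The fibroblast subsets differed in these genes. In PAM+ fibroblasts the 10 genes summed to 8.08, 32.7 and 8.93 UMIs per 10000 in calves 1, 2 and 3, and in MFAP5+ fibroblasts to 1.24, 1.37 and 2.03. In the 134 MFAP5+ cells no UMI of CNN1, TAGLN, ACTG2 or LMOD1 was found, which allows levels of up to 0.933, 0.241 and 0.152 per 10000 in calves 1, 2 and 3, and ACTA2 and MYH11 had 1 UMI each. MFAP5+ levels of TPM1 were 0.622, 0.402 and 1.12. ACTA2 in PAM+ fibroblasts was at 0.367, 13.3 and 2.60 per 10000, again highest in calf 2.

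The PAM+ fibroblasts were not alike in these genes. Thinning left out 3, 116 and 101 of their cells in calves 1, 2 and 3. At least 5 of the 10 genes were then found in 1 of 7, 15 of 48 and 3 of 61 PAM+ cells, and in no MFAP5+ cell. In calf 2 the 15 cells held 206 ACTA2 UMIs and the other 33 held 8. In the 15 cells of calf 2, ACTA2 was at 68.7 UMIs per 10000, TPM2 at 31.3, MYH11 at 10.7 and MYLK, the kinase that acts on the myosin light chain, at 10.7. In the other 33 cells these were 1.21, 0.91, 0 and 1.21. In the 3 cells of calf 3 ACTA2 was at 38.3 and TPM2 at 21.7, against 0.26 and 0.69 in the other 58. These cells were chosen by the 10 genes themselves, so the levels of the members describe the choice.

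Genes outside the choice also differed in value between these PAM+ cells. In calf 2, COL3A1 was at 38.7 UMIs per 10000 in the 15 cells and 125.6 in the other 33, LUM at 30.0 and 97.0, CXCL14 at 14.3 and 86.2, and DCN at 27.3 and 90.2. The mural markers HIGD1B and NOTCH3 had no UMI in the 15 cells or in the 3 of calf 3, which allows up to 1 and 5 per 10000, and RGS5 was at 0.33 and 0. RGS5 and HIGD1B were also low in the most contractile mural sub-cluster, described below, so they cannot set these cells apart from it. NOTCH3 was not low in this way: it was found in 53 of 84 thinned mural cells of calf 2 and in 82 of 130 of calf 3. Whether these PAM+ cells differ in kind from mural cells was not tested. KRT5, a basal epithelial keratin, was at 6.33 in the 15 cells and 6.82 in the others, and their median depths before thinning were 2567 and 2224 UMIs. DES was at 1.67 in the 15 cells of calf 2, against 8.31 in that calf's mural cells, whose sub-clusters 1 and 0, described below, had 1.64 and 15.4. In the 3 cells of calf 3 it had no UMI, which also allows up to 5 per 10000, close to the 6.08 of mural cells.

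Within mural cells the 10 genes went together from cell to cell. Over cells thinned to 2000 UMIs, all 45 pairs had a Pearson r above 0 in calf 2 and in calf 3. The median r was 0.55 (range 0.22 to 0.87, 84 cells) in calf 2 and 0.51 (0.21 to 0.81, 130 cells) in calf 3. The closest pair was MYH11 with CNN1 in calf 2, at 0.87 against 0.70 in calf 3, and ACTA2 with TPM2 in calf 3, at 0.81 against 0.78 in calf 2. The loosest was DES with LMOD1 in calf 2, at 0.22 against 0.31 in calf 3, and TAGLN with LMOD1 in calf 3, at 0.21 against 0.28 in calf 2. The cells of a calf share a library and are no replicates, so these values have no p. In fibroblasts, of which most cells have few of these genes, 41 of 45 pairs were above 0 in calf 2, with a median r of 0.51 over 73 cells, and 32 of 45 in calf 3, with a median of 0.30 over 109 cells. In endothelial and epithelial cells of calves 2 and 3 the genes were too sparse for r in many pairs, and the median of the others lay within 0.01 of 0.

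**Figure D2:**
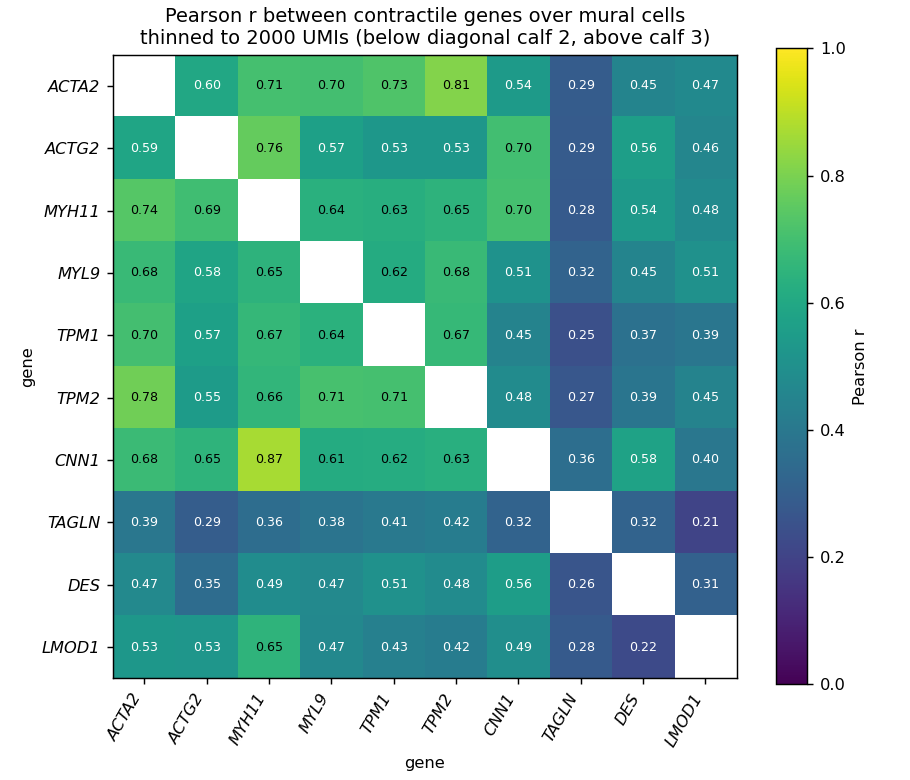
The grid gives the Pearson r between each pair of contractile genes over mural cells thinned to 2000 UMIs, calf 2 below the diagonal and calf 3 above it, with the colour scale from 0 to 1. All 45 pairs are above 0 in both calves and the pairs of TAGLN lie low, with r from 0.21 to 0.42.

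The contractile genes ran against all 6 pericyte markers in mural cells, though not equally. The summed contractile UMIs of a thinned cell had an r of -0.72 and -0.67 with HIGD1B in calves 2 and 3, and of -0.62 and -0.56 with RGS5, a regulator of G-protein signalling, and -0.48 and -0.55 with KCNJ8, a potassium channel subunit. The other 3 markers gave weaker values, ABCC9 -0.39 and -0.34, NDUFA4L2 -0.46 and -0.20, and COX4I2 -0.20 and -0.14. NOTCH3, which marks all mural cells, gave 0.19 and 0.27. PPP1R14A, an inhibitor of the phosphatase that acts on myosin, gave 0.62 and 0.54. The other smooth muscle markers outside the members that had a value were lower, the highest being MYLK at 0.38 and 0.37. VIM and ACTB, relatives of the members, gave 0.66 and 0.67, and 0.66 and 0.45. Such values were therefore not particular to partners of contraction. Cells with a UMI of any of 6 pericyte markers had a median of 11.5 contractile UMIs of 2000 in calf 2 and 9.5 in calf 3, against 76 and 48.5 in cells with none. As all cells were set to the same total, more UMIs of an abundant gene leave fewer for others. The contractile UMIs of a cell were at most 138 of 2000 in calf 2 and 208 in calf 3, and the size of this effect was not tested.

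**Figure D3:**
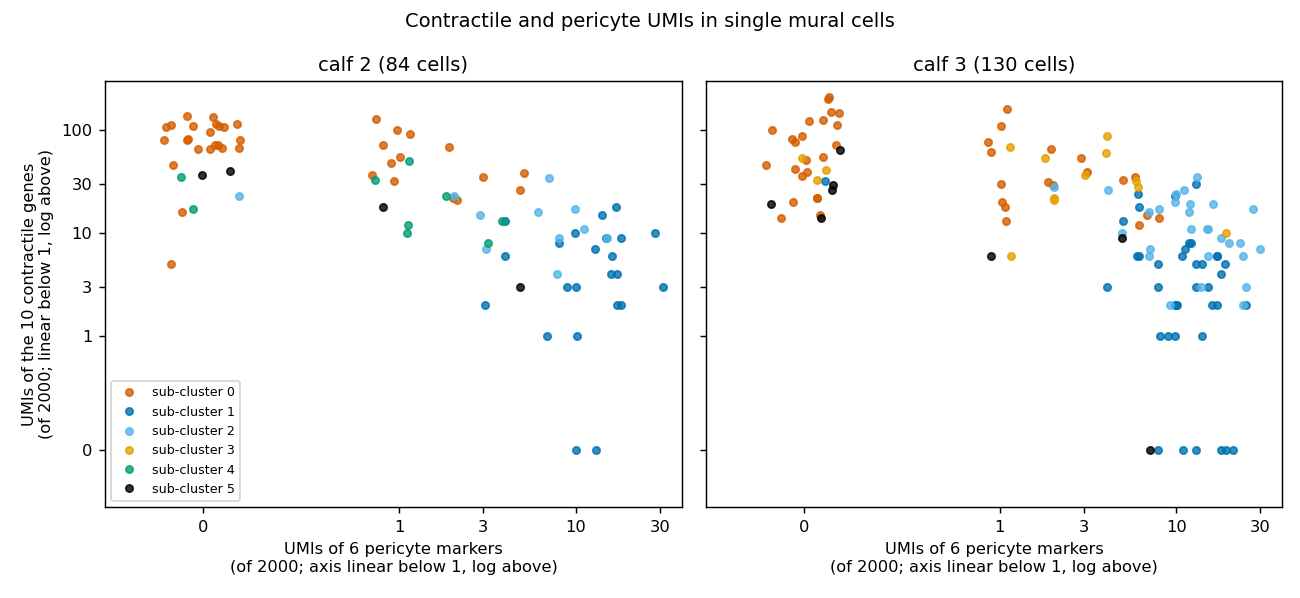
Each point is a mural cell thinned to 2000 UMIs, with the UMIs of 6 pericyte markers on the x axis (shifted slightly at random) and those of the 10 contractile genes on the y axis, coloured by sub-cluster. Cells with no pericyte UMI have medians of 76 (calf 2) and 48.5 (calf 3) contractile UMIs. The cell with the most pericyte UMIs has 3 contractile UMIs in calf 2 and 7 in calf 3.

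Mural cells were clustered again without the 10 genes, which gave 6 sub-clusters. Sub-cluster 0 had 102 cells, and CNN1, NDRG4 and MYH11 led it. Its contractile sum was 390.1 per 10000 in calf 2 and 354.9 in calf 3, with ACTA2 at 131.1 and 107.2, ACTG2 at 13.9 and 21.4 and DES at 15.4 and 15.0. RGS5 was at 0 and 0.12 there and HIGD1B at 0.07 and 0.98, but COX4I2 at 2.43 and 3.81. Sub-cluster 1 had 90 cells, led by CFD, UBD and LUM, with KCNJ8 also among its leading genes. CFD and LUM also led the PAM+ fibroblasts, and 7 of 9 fibroblast markers were found in sub-cluster 1, whose part in its values was not tested. Its contractile sum was 27.5 and 34.1, and ACTA2 was at 6.94 and 10.7. RGS5 was at 9.72 and 8.36 there and HIGD1B at 34.1 and 35.1. The marker rule named sub-cluster 1 fibroblast despite these pericyte markers, sub-clusters 2 and 4 pericyte, and sub-clusters 0 and 3 smooth muscle. The name of sub-cluster 4 is weak: it was led by CD36, FABP4 and FST, and no pericyte marker was among its leading genes. In calf 2 its thinned cells had 0 to 4 UMIs of the 6 pericyte markers, against 3 to 31 in sub-cluster 1. Sub-clusters 0 and 3 also had no marker of their list among their leading genes.

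The genes did not shrink alike between the sub-clusters. From sub-cluster 0 to sub-cluster 1 TPM1 was lower by 8.22 times in calf 2 and 5.20 times in calf 3, MYL9 by 6.32 and 7.41 times, and ACTA2 by 18.9 and 10.0 times, while MYH11 was at 0 and 0.20 and CNN1 at 0 and 0.07 in sub-cluster 1. Sub-cluster 2, of 64 pericyte-like cells, had an intermediate sum of 82.05 and 76.0, with ACTA2 at 29.1 and 23.3 but CNN1 at 0 in both calves. Sub-cluster 3, with 23 of its 24 cells from calf 3, had a sum of 206.3 in that calf, with ACTA2 at 74.2, CNN1 at 1.07 and DES at 2.15. Sub-cluster 4, with 21 cells, had a sum of 98.9 in the 16 cells of calf 2.

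Sub-cluster 5, with 19 cells, carried signs of another class. Its cells had a median of 7347 UMIs, 3.07 times the depth of mural cells of the same calves, the mitotic gene TOP2A and the epithelial genes COL17A1 and KRT15 were among its leading genes, and KRT5 was at 19.4 and 17.5 per 10000 in calves 2 and 3 against 3.1 and 2.28 in sub-cluster 0. The contractile sum was 113.7 and 134.7 there, ACTG2 was at 4.92 and 10.2, and without these 19 cells the contractile sum of mural cells was 153.8, 218.4 and 174.2 in calves 1, 2 and 3, a mean of 182.1 ± 33.0 (SD, n = 3 calves). Calf 1 then had 4 mural cells.

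**Figure D4:**
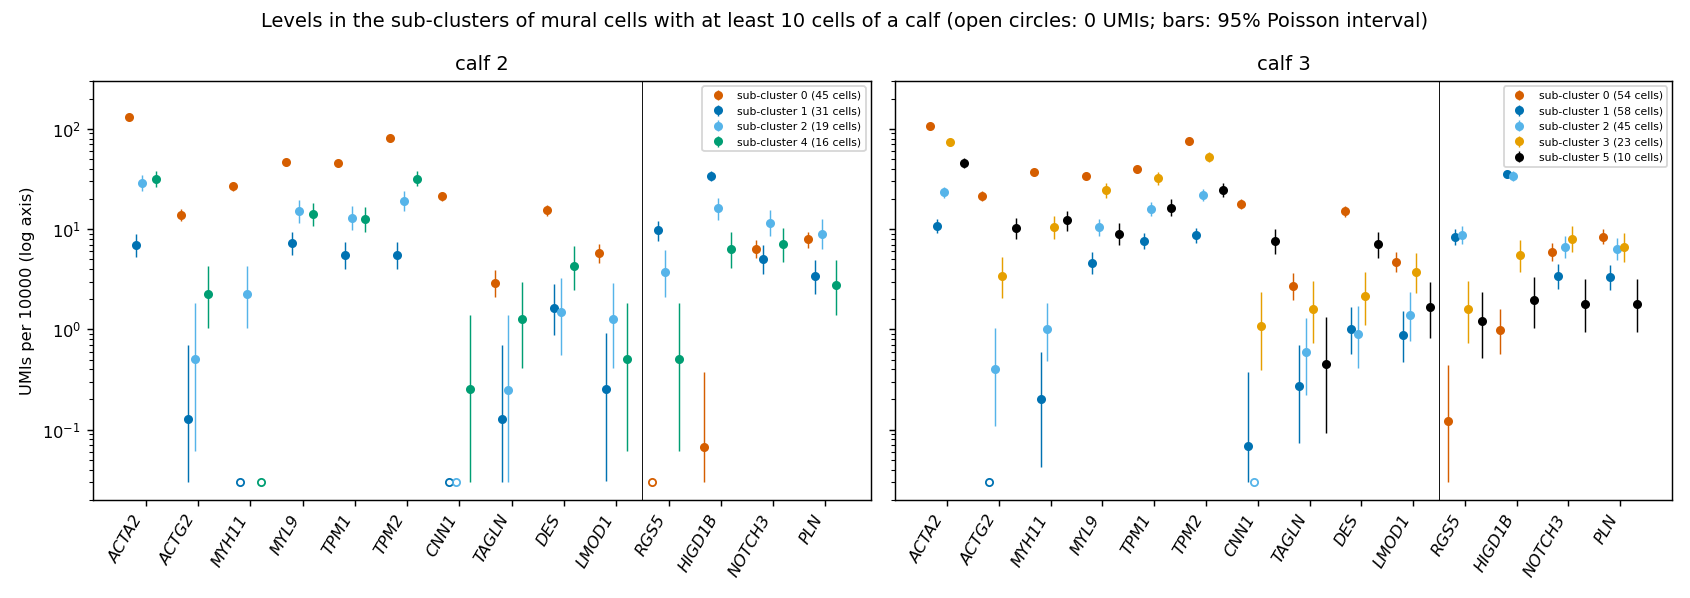
The panels give the UMIs per 10000 on a log axis of the 10 contractile genes and, right of the line, RGS5, HIGD1B, NOTCH3 and PLN in sub-clusters of mural cells with 10 or more cells of calf 2 or calf 3, bars being 95% Poisson intervals and open circles 0 UMIs. Sub-cluster 0 is highest for all 10 contractile genes and lowest for RGS5, while NOTCH3 is above 1 in each sub-cluster shown.

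Each gene was set beside the related genes of its family that most cells use. Of the actin UMIs of mural cells, ACTA2 made up 23.6%, 39.9% and 34.6% in calves 1, 2 and 3, or 32.7% ± 8.29 (SD, n = 3 calves), ACTG2 3.37% ± 2.28, the cytoplasmic actins ACTB 41.6% ± 3.79 and ACTG1 22.3% ± 6.48. MYH11 made up 76.6% ± 2.82 of the myosin heavy chain UMIs and MYH9, a non-muscle chain, 22.3% ± 2.43. MYL9 made up 52.8% ± 9.48 of the regulatory light chain UMIs, with nearly all the rest from MYL12A. In calf 1 MYL9, at 45.7%, was below MYL12A, at 52.2%, and in calves 2 and 3 it was above, at 63.6% and 49.3%. TPM2 made up 59.9% ± 3.05 and TPM1 29.7% ± 7.17 of the tropomyosins, and CNN1 73.3% ± 7.41 of the calponins. Transgelin and desmin differed from these, since TAGLN was 30.5% ± 3.35 of its family against 69.5% for TAGLN2, and DES 24.7% ± 17.3 against 72.7% ± 17.4 for VIM. DES was at 44.7%, 14.9% and 14.4% in calves 1, 2 and 3, and its mean without calf 1 was 14.7%.

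In endothelial and epithelial cells the relatives made up most of the UMIs of each family. In endothelial cells MYH9 was 90.8% of the heavy chains, MYL12A 94.9% of the light chains and TPM3 53.5% of the tropomyosins. In epithelial cells TPM1 was the largest tropomyosin, at 41.1% ± 2.56, ahead of TPM3 at 33.6% ± 4.63. In fibroblasts TPM1 made up 23.8% and TPM2 28.02% of the tropomyosins. ACTA2 was 8.05% ± 9.17 of the actin UMIs of fibroblasts, a value that the calves do not share, and under 0.1% of those of endothelial and epithelial cells.

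**Figure D5:**
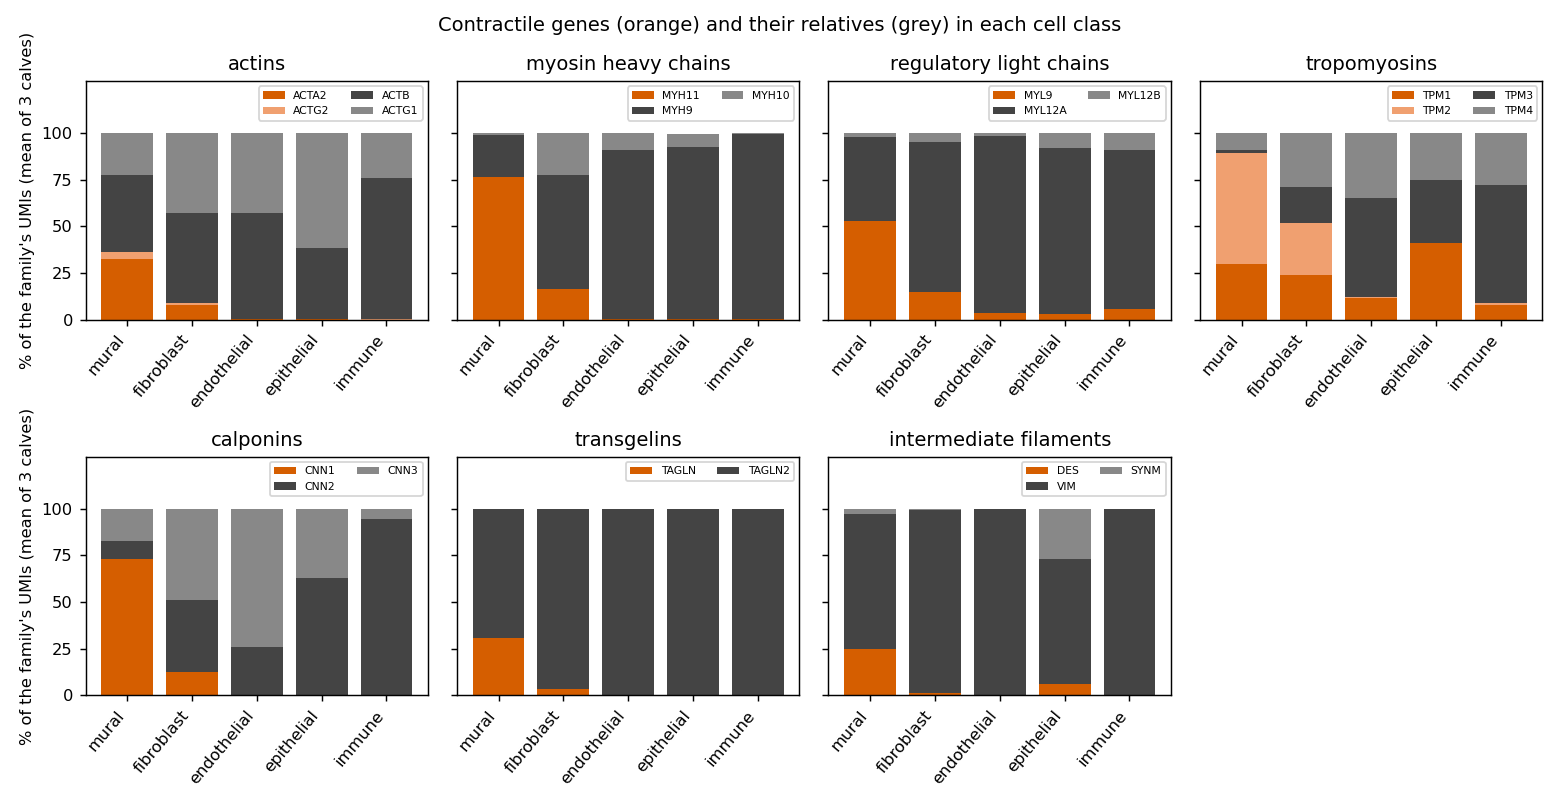
Stacked bars give the mean percent, over 3 calves, of the UMIs of each gene family in mural, fibroblast, endothelial, epithelial and immune cells, with contractile genes in orange and their relatives in grey. MYH11, MYL9, TPM2 and CNN1 are the largest parts of their families in mural cells and TPM1 is the largest tropomyosin in epithelial cells.

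The epithelium used TPM1 unevenly. Among 11 epithelial clusters, the level was 0.62, 0.59 and 0.95 UMIs per 10000 in calves 1, 2 and 3 in the cluster led by KRTDAP, a gene of the upper epithelial layers, and 2.44, 2.51 and 2.26 in the cluster led by CXCL2. Endothelial cells were also divided, as TPM1 was at 3.51 and 3.64 in calves 2 and 3 in the 353 cells led by CLDN5, with SOX17 among their leading genes, and at 0.880 and 1.202 in the 983 cells led by PLVAP. The ACTA2 level of both endothelial clusters stayed under 0.04.

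Partners of contraction were less uniform than the members. Of 26 measured regulators with enough UMIs, 12 met the 4-fold rule over fibroblasts, as did 15 of 25 over endothelial cells and 20 of 26 over epithelial cells, where the shares over all genes were 2.5%, 4.52% and 7.48%. The most abundant in mural cells were CALD1, a binder of actin and myosin, at 9.23, 22.1 and 28.7 per 10000, CSRP1 at 6.74, 20.9 and 14.5, FLNA, an actin crosslinker, at 17.4, 20.5 and 14.6, SORBS2 at 2.13, 9.20 and 7.23, and PPP1R14A at 3.55, 9.08 and 5.62. CALD1 did not meet the rule over fibroblasts, where it was at 6.57, 6.74 and 6.87. CASQ2, a calcium store protein, had no UMI in mural cells.

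Of the family relatives, 1 of 16 met the rule over fibroblasts, SYNM, an intermediate filament gene, and 1 of 16 over endothelial cells, TMOD1, which caps actin filaments. Over epithelial cells 5 of 17 met it, MYL6, TMOD1, VIM, SYNM and ACTB. A count of 1 of 16 is too small to set against the shares of 2.5% and 4.52% over all genes. Of the receptors and ligands of vessel tone, 1 of 4 met it over fibroblasts, AVPR1A, a vasopressin receptor, at 0, 0.634 and 0.558 in mural cells. Over endothelial cells 3 of 7 met it, AVPR1A, TBXA2R and EDNRA, and over epithelial cells 5 of 6, against the same shares over all genes. EDNRA, an endothelin receptor, was at 0.710, 2.48 and 1.77 in mural cells and at 0.842, 1.13 and 3.31 in fibroblasts, so that the order of the classes changed between calves 2 and 3.

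The genes most like the summed members were sought among 2511 genes with at least 50 UMIs in mural cells, by Pearson r over 14 units of a class in a calf. LYPD1, PLN, SEPTIN4, FRMD3, VCL, RRAD, GJC1, LPP and FBXO32 were among the first 10, with r from 0.98 to 0.95. PLN, which controls the calcium pump of muscle, was at 5.94 and 5.62 UMIs per 10000 of mural cells in calves 2 and 3. Among the other units it was at most 2.12, in the PAM+ fibroblasts of calf 2. In the 15 thinned PAM+ cells of calf 2 with at least 5 members it was at 8.33, above the mural level, against 0.91 in the other 33. The 3 such cells of calf 3 had no PLN UMI, which allows up to 5 per 10000. FBXO32 was higher in those fibroblasts, at 1.71, than in the mural cells of calves 2 and 3, at 1.38 and 1.36. Of the members, LMOD1 followed the other 9 most closely, at 0.99, and TPM1 least, at 0.82. The units share libraries and depth, and the values are a description.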

How the data were processed

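Droplet libraries (Chromium 3′ v3) of 3 newborn calves were used. The authors deposited UMI counts per gene and barcode from Cell Ranger 3.1.0 against ARS-UCD1.2, neither normalized nor filtered by their quality limits. The members and gene lists were chosen with earlier results of these data known.

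Barcodes with 500 to 4000 genes, at most 50000 UMIs and at most 40% UMIs of 13 mitochondrial genes were kept. Doublets were removed by the score of scanpy 1.11.5 (Scrublet) at 0.8% per 1000 barcodes, which took 191, 908 and 879 barcodes of calves 1, 2 and 3. Counts were log-normalized, reduced on 2000 variable genes other than the members, merged over calves by an own implementation of Harmony with 30 or 50 dimensions, and clustered with leidenalg 0.10.2 at resolutions of 0.1 (classes) and 0.8 (clusters). Classes were named from fixed markers. 1 cell stayed unnamed.

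Levels are means over calves with the SD. Share intervals are exact Clopper-Pearson at 95%. A fold needed at least 10 UMIs in both classes together and 20 cells of each. Likeness used log2 of the level plus 0.1. No p-value was computed. The fold rule and the thinning were tested on simulated data. Named genes were the members, up to 5 genes of each list by mural level, family relatives, markers and the 10 most alike, of which 1 is not reported here; MYLK, CASQ2, SYNM, TMOD1, TBXA2R and leading genes of clusters were named after their values were seen. No sequences or coordinates are given, since no genome of the files' build was used here. Alternatives changed doublet removal, variable genes, Harmony, resolution, the mitochondrial limit, calves, averaging, thinning and the fold rule.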

Additional observations from a re-analysis of the deposited data

Results flagged for a closer look

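ACTA2 was also found in barcodes that the comparisons leave out, above the limit of 3 counts set for a count of 0. Barcodes with more than 4000 genes held 11, 19 and 157 ACTA2 UMIs in calves 1, 2 and 3, which is 0.00430, 0.0314 and 0.0857 per 10000, and 0.878%, 2.14% and 2.98% of these barcodes had such a UMI. Barcodes with fewer than 500 genes held 22 ACTA2 UMIs in calf 2 and 5 in calf 3, or 0.111 and 0.0783 per 10000. Barcodes marked as doublets held 274 in calf 2 and 299 in calf 3, spread over 24 and 26 barcodes, or 0.305 and 0.331 per 10000. All these levels are below those of mural cells and of the fibroblasts of calves 2 and 3.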

How the results depend on the processing

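Of 55 values recomputed under 12 other settings, 52 moved by less than the spread between calves, or by less than 1.5 times for counts. The share of thinned mural cells with an ACTA2 UMI moved from 79.2% to 75.2% with at most 20% mitochondrial UMIs, to 85.2% with no thinning and to 85.3% without the sub-cluster of 19 cells led by epithelial genes, a setting chosen after seeing the data. Calf 1 gives 5 of the thinned cells but counts as much as the others in this mean, and without thinning the share rose in calf 1 only. The cause of the moves was not tested. Leaving out each calf gave 125 to 314 mural cells (314 without calf 1, 201 without calf 2 and 125 without calf 3), a mural sum of 120.5 to 188.0, a fibroblast sum of 5.35 to 15.1, an endothelial sum of 1.62 to 2.11, an epithelial sum of 2.03 to 2.24 and an ACTA2 share of 77.7% to 81.1%. The fibroblast sum was 5.35 without calf 2, which holds most of its ACTA2. All 10 members stayed past 4-fold over the pooled fibroblasts in the other settings tried, with 1 exception. With levels averaged over cells 9 did, LMOD1 being at 3.89 in calf 2. Over PAM+ fibroblasts alone LMOD1 was at 3.51 in calf 2 in the main setting. Only calves 2 and 3 have enough mural cells for counts by fold and for co-expression. All samples form a single group, so the calf numbers pair no groups of samples. Cell classes were set side by side within each calf by their values, with no test, since clustering defined them.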
